A study of Mus musculus with 384 samples.

Results

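Nicotinic acetylcholine receptors are ion channels made of 5 subunits, and the subunits that neurons use are encoded by a small gene family. The 8 neuronal subunit genes *Chrna3*, *Chrna4*, *Chrna5*, *Chrna6*, *Chrna7*, *Chrnb2*, *Chrnb3* and *Chrnb4* were taken by symbol from the count table, where they are 8 of the 26749 gene entries with at least 1 read. Their levels were read in single cells sorted from the midbrain of 8 mice, dissected together with the hypothalamus, which has DA neurons of its own. The table holds 384 cells, and the values below come from the 209 cells with at least 500000 reads assigned to genes.

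All 8 mice carried DAT-IRES-Cre and the Ai9 tdTomato reporter on the C57BL6/J strain, were 24 to 36 days old by the labels of each mouse, where the series text gives a narrower range, and received no treatment. The labels name 5 mice as male and 3 as female. The Cre is driven from the dopamine transporter gene and the reporter stays on in any cell that has ever expressed it, so a tdTomato+ cell need not be a dopamine (DA) neuron at the time of collection. Live tdTomato+ cells were sorted and captured on a Fluidigm C1, with 1 run per mouse, so that mouse and run cannot be told apart. Cells of 1 mouse share that run, and the mouse was therefore taken as the replicate.

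Pentamers with an α4 or α6 subunit and β2 carry most of the high-affinity nicotine response of DA neurons. The subunit α6 is largely restricted to catecholamine neurons and the visual system, and β3 and α5 are accessory subunits that take the fifth position of the channel. The subunits α3 and β4 are best known from autonomic ganglia and the medial habenula, and α7 forms channels on its own. Acetylcholine released in the midbrain and striatum acts on these receptors at the cell bodies and terminals of DA neurons.

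The retained cells held 500672 to 1544810 reads, with a median of 780466 reads and 9122 genes with a read. Each mouse gave 12 to 45 of them. Cells were called *Th*-rich at 500 CPM (reads scaled to 1000000 per cell or pool) of *Th*, the rate-limiting enzyme of dopamine synthesis, which gave 186 *Th*-rich and 23 *Th*-poor cells with *Th* medians of 6830 and 11.6 CPM. Among *Th*-rich cells, 10 reads or more of a gene made a cell positive, which gave 74 *Aldh1a7*+ and 112 *Aldh1a7*- cells, and 49 *Neurod6*+ and 137 *Neurod6*- cells. *Aldh1a7* encodes an aldehyde dehydrogenase and *Neurod6* a transcription factor of a subset of VTA neurons, and 18 cells were positive for both. The dopamine transporter gene *Slc6a3* had a median of 3287 CPM in *Th*-rich and 330 CPM in *Th*-poor cells. In *Th*-poor cells the glutamate transporter gene *Slc17a6* had a median of 514 CPM, against 11.9 CPM in *Th*-rich cells. Of 5 oligodendrocyte markers, 1 was found in at least 10% of *Th*-poor cells, and 1 in at least 10% of *Th*-rich cells. The sum of those 5 ran from 2.89 to 94350 CPM over mice in *Th*-poor cells and from 9.40 to 1110 CPM in *Th*-rich cells, with *Mog* at 0 reads in both. The value of 94350 CPM came from a mouse with 1 *Th*-poor cell.

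*Chrna6* was the most abundant subunit mRNA. Its summed counts gave 694, 1312, 1423, 718.5, 826, 1284, 891 and 1058 CPM in mice 1 to 8, a mean of 1026 ± 285 CPM (SD, n = 8 mice). *Chrna4* ran at 234, 406, 491, 422, 442, 268, 476 and 320 CPM, with a mean of 382 ± 96.6 CPM. *Chrnb3*, the accessory β3 subunit, ran at 217, 286, 290, 163, 357, 261, 174 and 256 CPM, with a mean of 251 ± 64.4 CPM. All 8 mice carried these 3 messages, and mouse 1 was lowest for *Chrna6* and *Chrna4* and mouse 4 for *Chrnb3*.

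*Chrnb2*, the β subunit that pairs with α4 and α6, gave 40.3, 59.3, 37.1, 14.2, 66.9, 68.8, 65.8 and 56.8 CPM, with a mean of 51.1 ± 19.1 CPM. *Chrna3* gave 3.45, 57.6, 114, 69.1, 63.1, 34.2, 38.4 and 16.2 CPM, with a mean of 49.5 ± 34.7 CPM. *Chrna3* thus spread far more between mice than *Chrna6*, with mouse 1 lowest and mouse 3 highest. The counts of *Chrna5* gave 0, 6.58, 17.0, 11.3, 18.2, 6.19, 6.38 and 2.29 CPM, and no read of it came from mouse 1, where the limit that a count of 0 allows was 0.235 CPM. *Chrnb4* averaged 6.71 ± 8.15 CPM and *Chrna7* 6.02 ± 6.18 CPM, each with its highest value in mouse 6, at 25.1 and 18.4 CPM. For these last 2 genes the SD was as large as the mean.

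Levels of different genes were compared per kilobase of exon. The order was *Chrna6* at 353 ± 98.2 CPM per kb, *Chrna4* at 83.7 ± 21.2, *Chrnb3* at 54.6 ± 14.0, *Chrna3* at 11.4 ± 7.95, *Chrnb2* at 7.99 ± 2.98, *Chrna5* at 4.52 ± 3.48, *Chrna7* at 2.89 ± 2.97 and *Chrnb4* at 1.80 ± 2.19 CPM per kb (mean ± SD, n = 8 mice). Between neighbours, only *Chrna6* over *Chrna4* and *Chrnb3* over *Chrna3* had ranges over mice that did not overlap. *Chrna6* ran from 239 to 490 CPM per kb and *Chrna4* from 51.2 to 107, and *Chrnb3* from 35.5 to 77.8 and *Chrna3* from 0.791 to 26.2. By this measure, which takes the annotated exons as the length, the mRNA of the partner β2 was lower per length than those of α6, α4 and the accessory β3. Reads shared between genes were left out by the authors' counting, and the 3′ ends of *Chrna3* and *Chrna5* overlap, so both levels leave out reads from that stretch.

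**Figure D1:**
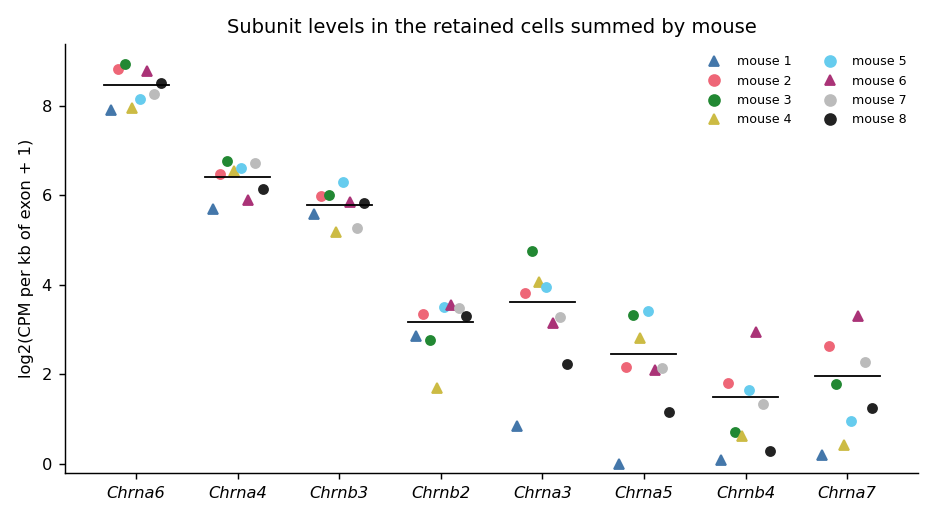
Level of each subunit gene in each of the 8 mice, as log2(CPM per kb of exon + 1) of the summed counts of a mouse; triangles are the 3 female mice, circles the 5 male mice and the line is the mean. *Chrna6* lies above every other gene in all mice, and *Chrna3*, *Chrna5*, *Chrna7* and *Chrnb4* spread the most.

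The share of cells with a subunit ran from most cells to few over the family. With 10 reads or more counted as detected, *Chrna4* was detected in 186 of 209 cells (89.0%, exact 95% interval 83.9 to 92.9), *Chrna6* in 181 (86.6%, 81.2 to 90.9), *Chrnb3* in 170 (81.3%, 75.4 to 86.4) and *Chrnb2* in 152 (72.7%, 66.2 to 78.6). *Chrna3* was detected in 91 cells (43.5%, 36.7 to 50.6) and *Chrna5* in 45 (21.5%, 16.2 to 27.7). *Chrna7* was detected in 18 cells (8.61%, 5.18 to 13.3) and *Chrnb4* in 12 (5.74%, 3.00 to 9.81). These intervals cover counting error over cells and not the spread between mice, and PCR copies were not marked in these libraries.

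The reads of the rarer subunits came from few cells. The cells with the top 10% of values held 97.5% of the *Chrnb4* reads and 96.2% of the *Chrna7* reads, against 30.7% of the *Chrna6* reads and 27.9% of the *Chrna4* reads. *Chrnb4* and *Chrna7* were detected in under 10% of cells, so that such shares follow from their detection. A single cell held 32.4% of all *Chrnb4* reads. Where it was detected, *Chrna3* had a median of 109 CPM, *Chrnb4* 54.7 CPM, *Chrna5* 33.2 CPM and *Chrna7* 31.3 CPM. The medians in cells with the commoner subunits were 1119 CPM for *Chrna6*, 426 CPM for *Chrna4*, 289 CPM for *Chrnb3* and 50.0 CPM for *Chrnb2*. The highest cell reached 3468 CPM of *Chrna6*, 2126 CPM of *Chrna4* and 1353 CPM of *Chrnb3*.

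**Figure D2:**
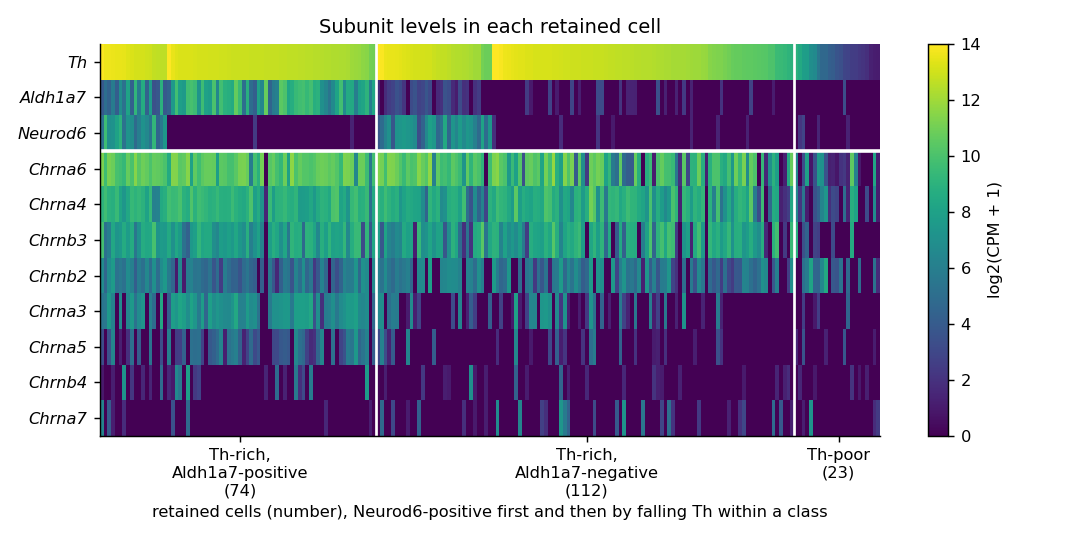
Heatmap of log2(CPM + 1) for *Th*, *Aldh1a7*, *Neurod6* and the 8 subunit genes (rows) in the 209 retained cells (columns), in the 3 classes of 74 *Aldh1a7*+, 112 *Aldh1a7*- and 23 *Th*-poor cells, with *Neurod6*+ cells first in a class and then by falling *Th*. *Chrna6*, *Chrna4* and *Chrnb3* run through most *Th*-rich cells, while *Chrna3* and *Chrna5* fill mainly the *Aldh1a7*+ block, with *Chrna3* in 64 of its 74 cells.

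Single cells usually carried several subunit mRNAs at once. The median cell had 4 of the 8 genes detected, 38 cells had 6, 4 cells had 7 and no cell had all 8. There were 37 different sets of detected subunits. The commonest was *Chrna6*, *Chrna4*, *Chrnb3* and *Chrnb2* with no other, in 46 cells (22.0%) from all 8 mice. The same set with *Chrna3* came next, in 31 cells (14.8%, 8 mice), and with *Chrna3* and *Chrna5* in 29 cells (13.9%, 5 mice). Only 11 cells (5.26%) had none of the 8 genes detected, of which 7 were *Th*-poor.

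The 4 messages for an α4α6β2β3 receptor were found together, whatever else was detected, in 128 of 209 cells (61.2%, exact 95% interval 54.3 to 67.9), and in 22.2% to 80.0% of the cells of a mouse. All of these cells were *Th*-rich, 128 of 186 (68.8%), and the 0 of 23 *Th*-poor cells has an exact interval that reaches 14.8%. The pair *Chrna4* and *Chrnb2*, whose proteins form the commonest nicotinic receptor of the brain, was found in 143 cells (68.4%). With *Chrna5* added, it was found in 37 cells (17.7%). The ganglionic pair *Chrna3* and *Chrnb4* was found in 10 cells (4.78%). Shared messages in a cell do not show that the proteins assembled.

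**Figure D3:**
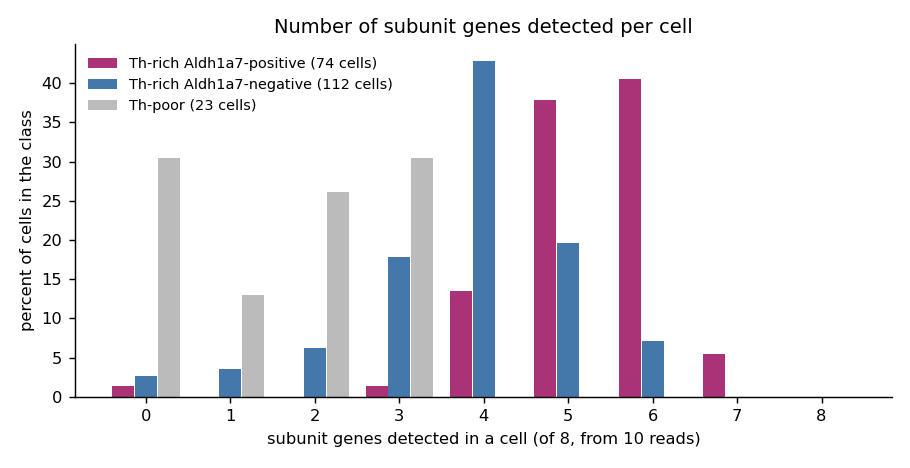
Percent of cells (vertical axis) by the number of subunit genes detected at 10 reads or more (horizontal axis), for *Aldh1a7*+ (74), *Aldh1a7*- (112) and *Th*-poor (23) cells. The median was 5 genes in *Aldh1a7*+, 4 in *Aldh1a7*- and 2 in *Th*-poor cells, of which none exceeded 3.

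Which subunits were detected in the same cells was tested for 5 of the 28 pairs. For each mouse with at least 3 cells with and 3 cells without the first subunit, the percent of cells with the second was compared between them, with a two-sided exact permutation test of sign changes over mice. The p-values were not adjusted over the 5 pairs.

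*Chrna5* was detected more often in cells with *Chrna3* than in cells without it. *Chrna5* was found in 40 of 91 cells with *Chrna3* (44.0%, exact 95% interval 33.6 to 54.8) and in 5 of 118 cells without it (4.24%, 1.39 to 9.61). The share of cells with *Chrna5* among those with *Chrna3* was 36.4% in mouse 2, 48.7% in mouse 3, 28.6% in mouse 4, 58.8% in mouse 5, 0% in mouse 6, 44.4% in mouse 7 and 33.3% in mouse 8. Among cells without *Chrna3* it was 8.70%, 0%, 0%, 9.52%, 7.69%, 0% and 0% in the same mice. The share was thus higher beside *Chrna3* in 6 of 7 mice and lower in mouse 6, where 4 cells had *Chrna3*. The mean difference was 32.0 ± 19.8 percentage points (SD, n = 7 mice, exact permutation p = 0.03125, where 0.015625 is the smallest possible). In *Th*-rich cells alone it was 32.3 percentage points over 6 mice (exact permutation p = 0.0625, where 0.03125 is the smallest possible). *Chrna5* and *Chrna3* lie tail to tail on opposite strands of chromosome 9 (GRCm38, *Chrna5* at 54980827-55011420 on the + strand and *Chrna3* at 55010117-55026562 on the - strand) and share 1304 bases. The libraries do not mark strand, so reads in that stretch cannot be told apart, and the counting left them out of both genes.

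*Chrnb4* lies next in this cluster, 1591 bases beyond the start of *Chrna3* (chromosome 9, 55028154-55048953, - strand). It was detected in 10 of 91 cells with *Chrna3* (11.0%) and in 2 of 118 without (1.69%). The difference was 11.0 ± 8.07 percentage points (SD, n = 7 mice), with 6 mice higher and both shares at 0 in mouse 8 (exact permutation p = 0.03125). In *Th*-rich cells alone it was 10.3 percentage points over 6 mice (exact permutation p = 0.0625, the smallest possible with mouse 8 at 0). For both *Chrna3* pairs, leaving out 1 mouse usually raised the exact permutation p to 0.0625, and the exceptions were mouse 8 for *Chrnb4* and mouse 6 for *Chrna5*. With mouse 8 at 0 and another mouse left out, the *Chrnb4* pair could give no lower p. All 3 genes were found in 4 cells.

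The upstream sequences of this gene pair are shown because *Chrna3* and *Chrna5* were detected in the same cells. They are RefSeq sequences of GRCm38.p6, from 250 to 51 bases before a transcript start, 5′ to 3′ on the strand of the gene, and capitals mark a GC box. *Chrna5* has 2 annotated starts with a window each, at chr9:54980630-54980829 and chr9:54981238-54981437 on the + strand, and *Chrna3* has 1 at chr9:55026613-55026812 on the - strand.
Chrna3: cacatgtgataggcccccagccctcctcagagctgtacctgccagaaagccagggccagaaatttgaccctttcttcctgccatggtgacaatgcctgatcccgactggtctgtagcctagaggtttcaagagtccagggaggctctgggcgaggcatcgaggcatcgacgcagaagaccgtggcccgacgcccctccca
Chrna5, first start: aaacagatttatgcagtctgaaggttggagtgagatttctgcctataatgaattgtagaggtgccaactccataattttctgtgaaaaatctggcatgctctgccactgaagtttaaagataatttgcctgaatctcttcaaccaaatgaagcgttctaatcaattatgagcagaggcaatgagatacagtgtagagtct
Chrna5, second start: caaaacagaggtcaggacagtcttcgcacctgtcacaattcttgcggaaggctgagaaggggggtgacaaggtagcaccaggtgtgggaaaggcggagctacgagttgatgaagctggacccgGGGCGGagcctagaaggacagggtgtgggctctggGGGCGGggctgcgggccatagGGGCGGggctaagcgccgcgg

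The 2 *Chrna5* windows differ in base composition, with 38% and 64% G and C, and the *Chrna3* window has 60%, where the median of all windows is 51.5%. Both strands were searched for the GC box GGGCGG, the NR4A half-site AAGGTCA and the Pitx core TAATCC. These were present in 24.6%, 3.36% and 5.22% of 32851 promoter windows of that length. The second *Chrna5* window holds 3 GC boxes, and the other windows hold none of the 3 motifs.

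*Chrnb3* and *Chrna6* are also neighbours, 3481 bases apart on chromosome 8 (*Chrnb3* at 27368711-27399730 on the + strand, *Chrna6* at 27403212-27413944 on the - strand). *Chrnb3* was detected in 164 of 181 cells with *Chrna6* (90.6%) and in 6 of 28 cells without (21.4%). The difference was 65.9 ± 24.5 percentage points over the 5 mice that allowed it (SD, n = 5), and all 5 were positive, from 33.3 to 91.7. The exact permutation p = 0.0625 is the smallest that 5 mice can give. Of the 28 cells without *Chrna6*, 15 were *Th*-poor, and within *Th*-rich cells the difference was 35.4 percentage points in the 2 mice that could be used.

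*Chrnb2* was detected in 143 of 186 cells with *Chrna4* (76.9%) and in 9 of 23 without (39.1%). Over 4 mice the difference was 11.6 ± 21.2 percentage points, with 3 mice higher and 1 lower, which was within the spread between mice (exact permutation p = 0.375). All 45 cells with *Chrna5* also had *Chrna4*, and 0 of 23 cells without *Chrna4* had *Chrna5*, with an exact interval that reaches 14.8%. The difference over 4 mice was 15.9 ± 15.4 percentage points (exact permutation p = 0.25, where 4 mice cannot go below 0.125). *Chrna5* and *Chrna7* were found together in 1 cell.

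**Figure D4:**
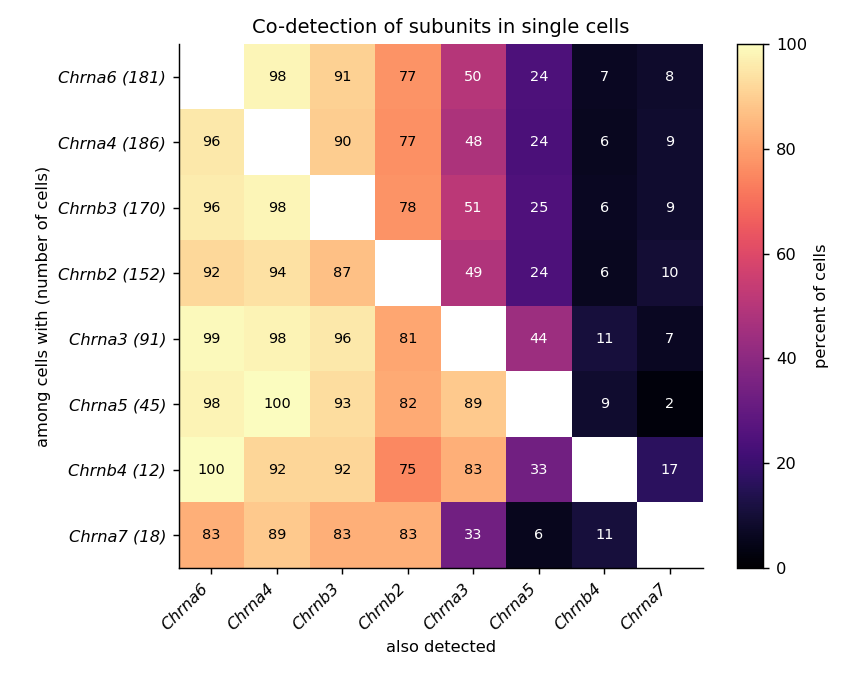
Percent of cells with the column subunit detected among cells with the row subunit detected, over the 209 retained cells, with 10 reads or more as detected. *Chrna5* reaches 44.0% in the *Chrna3* row, and the *Chrna6* row holds 90.6% for *Chrnb3*.

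As a description over the 209 cells, which share mice, runs and depth, the gene most like *Chrna3* in log2(CPM + 1) was *Kcns3*, a modulatory potassium channel subunit (Pearson r = 0.73), followed by *Aldh1a7* (0.69) and *Chrna5* (0.66). *Chrna5* was most like *Chrna3* (0.66), *Kcns3* (0.60) and *Col25a1* (0.56). Among the genes closest to *Chrna6* were *Chrna4* (0.69) and *Chrnb3* (0.68), and *Chrna4* was most like *Ret* (0.74), the GDNF receptor kinase, *En1* (0.72) and *Nrxn3* (0.72). The closest genes to *Chrnb2* reached only 0.40, to *Chrna7* 0.31 and to *Chrnb4* 0.28. Over the 186 *Th*-rich cells, *Chrna3* kept 0.72 with *Kcns3* and 0.67 with *Aldh1a7*, while *Chrna6* with *Chrna4* was 0.52.

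The first comparison asked how the subunits differed between *Th*-rich and *Th*-poor cells, in mice 1, 2, 4, 5 and 6, which had 3 or more cells in both classes. Counts were summed per mouse and class and tested with edgeR. *Chrna6*, *Chrna4*, *Chrnb3* and *Chrna3* were each higher in the *Th*-rich cells of all 5 mice, with classes that did not overlap. By edgeR, 0 of the 6 subunits tested passed the adjusted threshold of 0.05, where 0.485% of 11132 genes did, and these 4 had an unadjusted p under 0.05, as had 1029 of all 11132 genes. *Chrnb4* and *Chrna7* were too low to enter. How many of all genes tested had classes that did not overlap was not counted.

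*Chrna6* gave 975, 1395, 1083, 905 and 1729 CPM in *Th*-rich cells and 56.7, 397, 83.8, 59.1 and 14.6 CPM in *Th*-poor cells of mice 1, 2, 4, 5 and 6. The lowest *Th*-rich value was thus above the highest *Th*-poor value, which came from mouse 2. The means were 1217 ± 342 and 122 ± 156 CPM (log2 fold change 3.14 ± 0.75 SE, edgeR adjusted p = 0.113). Without mouse 2 the log2 fold change was 4.44. In *Th*-poor cells of all mice, 1 cell held 53.4% of the *Chrna6* reads.

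*Chrna4* gave 336, 431, 646, 482 and 342 CPM in *Th*-rich cells against 2.05, 127, 32.2, 57.0 and 56.4 CPM in *Th*-poor cells (2.90 ± 0.73, edgeR adjusted p = 0.143). *Chrnb3* gave 309, 303, 257, 385 and 352 CPM against 5.90, 102, 0, 86.6 and 2.12 CPM (2.89 ± 1.12, edgeR adjusted p = 0.441). Its log2 fold change was 4.97 with mouse as a block and ran from 1.76 to 8.11 over the alternatives tried. The *Th*-rich values of *Chrnb3* were close together, and the 2 *Th*-poor values near 100 CPM rested on few cells. Of the 23 *Th*-poor cells, 16 had 0 reads of *Chrnb3* and 2, in mice 2 and 5, had over 100 CPM, and 1 cell held 47.6% of the reads.

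*Chrna3* was nearly absent from *Th*-poor cells. It gave 4.97, 62.8, 106, 69.5 and 45.8 CPM in *Th*-rich cells against 0, 0.414, 4.51, 1.01 and 1.06 CPM (5.34 ± 1.16, edgeR adjusted p = 0.0800), and was detected in 1 of 23 *Th*-poor cells. *Chrna5* gave 0, 6.80, 17.6, 20.0 and 7.52 CPM against 0, 4.14, 0.322, 0.671 and 2.38 CPM (2.65 ± 1.39, edgeR adjusted p = 0.609), and its classes overlapped.

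For *Chrnb2* the classes overlapped. It gave 48.9, 63.7, 12.6, 64.8 and 52.8 CPM in *Th*-rich cells and 20.8, 9.93, 17.1, 87.6 and 114 CPM in *Th*-poor cells, higher in *Th*-poor cells in 3 of 5 mice (-0.09 ± 0.71, edgeR adjusted p = 0.985). In *Th*-poor cells 1 cell held 40.9% of the *Chrnb2* reads, and the median cell had 13.2 CPM, against 36.6 CPM in *Th*-rich cells. *Chrnb2* was detected in 75.3% of *Th*-rich and 52.2% of *Th*-poor cells, where *Chrna6* was detected in 93.0% and 34.8% and *Chrnb3* in 89.8% and 13.0%. Whether *Chrnb2* differed in its change from the other subunits was not tested.

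DESeq2 called 3 of the 6 subunits, *Chrna6* (adjusted p = 0.00149), *Chrna4* (0.00431) and *Chrna3* (6.6e-06), with 3.46% of 10879 genes called. Leaving out mouse 1 brought *Chrna4* and *Chrna3* past the edgeR threshold (adjusted p = 0.0445 each), when all genes called rose from 54 to 105. Leaving out mouse 2 brought *Chrna6* past it (edgeR adjusted p = 0.00754), when all genes called fell to 17. The cells of mice 1, 2, 4 and 6 were captured on 1 of the 2 C1 machines and gave 3.07, 2.88, 3.28 and 5.19 for *Chrna6*, *Chrna4*, *Chrnb3* and *Chrna3* on the log2 scale, and the other C1 machine holds only mouse 5 of this comparison. *Chrna4* and *Chrna5* were among the genes the study used as positive controls for its normalization, which was not applied to these counts. *Th*-poor cells also carried fewer genes per cell (median 8328 against 9240.5) and the glutamatergic and oligodendrocyte messages given above, whose part in these differences was not tested. The *Th*-poor cell with the highest oligodendrocyte sum came from a mouse outside this comparison.

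The dopamine identity genes gave the scale of this comparison. Of 14 tested, 4 rose in *Th*-rich cells by edgeR: *Th* itself, by which the cells were divided, *Slc6a3* (2.98, adjusted p = 0.000197), the vesicular monoamine transporter *Slc18a2* (2.08, adjusted p = 0.00313) and the D2 autoreceptor *Drd2* (5.94, adjusted p = 0.0146). DESeq2 called 8 of the 14, and edgeR with mouse as a block called 2, when all genes called fell from 54 to 11. The 2 were *Slc6a3* and *Slc18a2*. In that fit *Th* (6.90, edgeR adjusted p = 0.0558) and *Drd2* (6.61, edgeR adjusted p = 0.0789) were not called. The reporter by which all cells were sorted is driven from *Slc6a3*. In the *Aldh1a7*, *Neurod6* and sex comparisons edgeR called 0 of the 15 tested, with 6, 1 and 5 at an unadjusted p under 0.05, where 973 of 12525, 697 of 12440 and 1261 of 15528 genes were. DESeq2 called 3, 0 and 1 of them, and 1.25%, 0.906% and 1.27% of all genes. With mouse as a block, 1 was called by *Aldh1a7* status, where the count of all genes called stayed close to the main 14.

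The second comparison asked how subunits differed between *Aldh1a7*+ and *Aldh1a7*- cells, both *Th*-rich, in the 7 mice with both (mice 2 to 8). *Chrna3* was higher in *Aldh1a7*+ cells of all 7 mice, and its 2 classes overlapped. By edgeR, 0 of the 8 subunits were called, where 0.112% of 12525 genes were, and *Chrna6*, *Chrna3* and *Chrnb4* had an unadjusted p under 0.05, as had 973 of all genes. DESeq2 called 0 of the 8, with 1.25% of 12039 genes called. The study lists *Chrna3* and *Aldh1a7* together among the genes of 1 cluster of these same cells, so that the direction of *Chrna3* is not independent evidence.

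*Chrna3* gave 142, 144, 119, 125, 88.4, 119 and 53.1 CPM in *Aldh1a7*+ cells and 16.3, 73.3, 94.7, 6.97, 22.4, 17.7 and 0.446 CPM in *Aldh1a7*- cells of mice 2 to 8. The classes overlapped, since the *Aldh1a7*- cells of mice 3 and 4 lay above the *Aldh1a7*+ cells of mouse 8. The means were 113 ± 32.1 and 33.1 ± 36.0 CPM (log2 fold change 1.82 ± 0.69 SE, edgeR adjusted p = 0.497). With mouse as a block, which compares the classes within each animal, it was 2.80 (edgeR adjusted p = 0.175). By C1 machine, the log2 fold change was 1.70 in mice 2, 4, 6 and 7 and 2.02 in mice 3, 5 and 8.

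In cells, *Chrna3* was detected in 86.5% of *Aldh1a7*+ cells (exact 95% interval 76.5 to 93.3) and 23.2% of *Aldh1a7*- cells (15.8 to 32.1), and the share was higher in 7 of 7 mice. The median depths were 791394 and 780676 reads, and with every cell thinned to 500000 reads the shares were 85.1% and 22.3%. Of the 90 *Th*-rich cells with *Chrna3*, 64 (71.1%) were *Aldh1a7*+.

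*Chrna5* was also found in more *Aldh1a7*+ cells, in 47.3% against 8.04%, with the share higher in 5 of 7 mice and at 35.1% and 5.36% after thinning. Its levels were 17.0, 20.4, 8.85, 36.2, 2.36, 23.1 and 7.17 CPM in *Aldh1a7*+ cells and 0.829, 12.5, 25.7, 1.76, 10.3, 1.99 and 0.223 CPM in *Aldh1a7*- cells, lower in mice 4 and 6 and higher in the other 5 (1.14 ± 0.86, edgeR adjusted p = 0.814, and 2.37 with mouse as a block, edgeR adjusted p = 0.580). In mice 4 and 6 a single *Aldh1a7*- cell held all *Chrna5* reads of that class. The log2 fold change was 0.44 on the machine of mice 2, 4, 6 and 7 and 2.15 on that of mice 3, 5 and 8. *Chrna3* with *Chrna5* was found in 33 of 74 *Aldh1a7*+ cells (44.6%) and 7 of 112 *Aldh1a7*- cells (6.25%), and *Chrna4*, *Chrna5* and *Chrnb2* together in 41.9% and 5.36%.

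*Chrna6* gave 1753, 1437, 1272, 1124, 2403, 1399 and 997 CPM in *Aldh1a7*+ cells and 1186, 1484, 908, 660, 1359, 785 and 1084 CPM in *Aldh1a7*- cells, higher in 5 of 7 mice (0.59 ± 0.24, edgeR adjusted p = 0.551). By machine the log2 fold change was 0.81 and 0.22. *Chrnb4* was carried by few cells, 12.2% of *Aldh1a7*+ and 2.68% of *Aldh1a7*- cells, and its level in *Aldh1a7*+ cells ran from 0 in mouse 4 to 95.2 CPM in mouse 6 (3.52 ± 1.34, edgeR adjusted p = 0.506). Without mouse 6 the log2 fold change was 1.86, and it was 1.86 to 4.69 when any 1 mouse was left out.

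*Chrna4*, *Chrnb3* and *Chrnb2* lay close together in the 2 classes. *Chrna4* had means of 483 ± 71.9 and 455 ± 173 CPM (0.16 ± 0.22, edgeR adjusted p = 0.922), *Chrnb3* 280 ± 57.7 and 299 ± 92.0 CPM (0.01 ± 0.20, edgeR adjusted p = 0.994) and *Chrnb2* 46.9 ± 19.0 and 52.0 ± 19.3 CPM (-0.04 ± 0.36, edgeR adjusted p = 0.989). *Chrna7* had means of 3.09 ± 5.06 and 7.08 ± 5.09 CPM, was lower in *Aldh1a7*+ cells in 5 mice and higher in 1 (-1.04 ± 1.23, edgeR adjusted p = 0.900, and -3.62 with mouse as a block, edgeR adjusted p = 0.507), and was at 0 in the *Aldh1a7*+ cells of mice 4, 5 and 7.

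The median log2 fold change was 0.37, against -0.01 over all genes. *Aldh1a7*+ cells also had more genes per cell (median 9778 against 8794), more *Slc6a3* (median 4688 against 2018 CPM) and more of the nigral-type marker list (median of its sum 6985 against 199 CPM) and less of the ventral tegmental-type list (60.5 against 908 CPM), whose part in the subunit differences was not tested. The nigral-type list holds *Aldh1a7* itself and its close relative *Aldh1a1* (median 6452 against 66.8 CPM), and reads that aligned to more than 1 gene were left out of the counting.

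**Figure D5:**
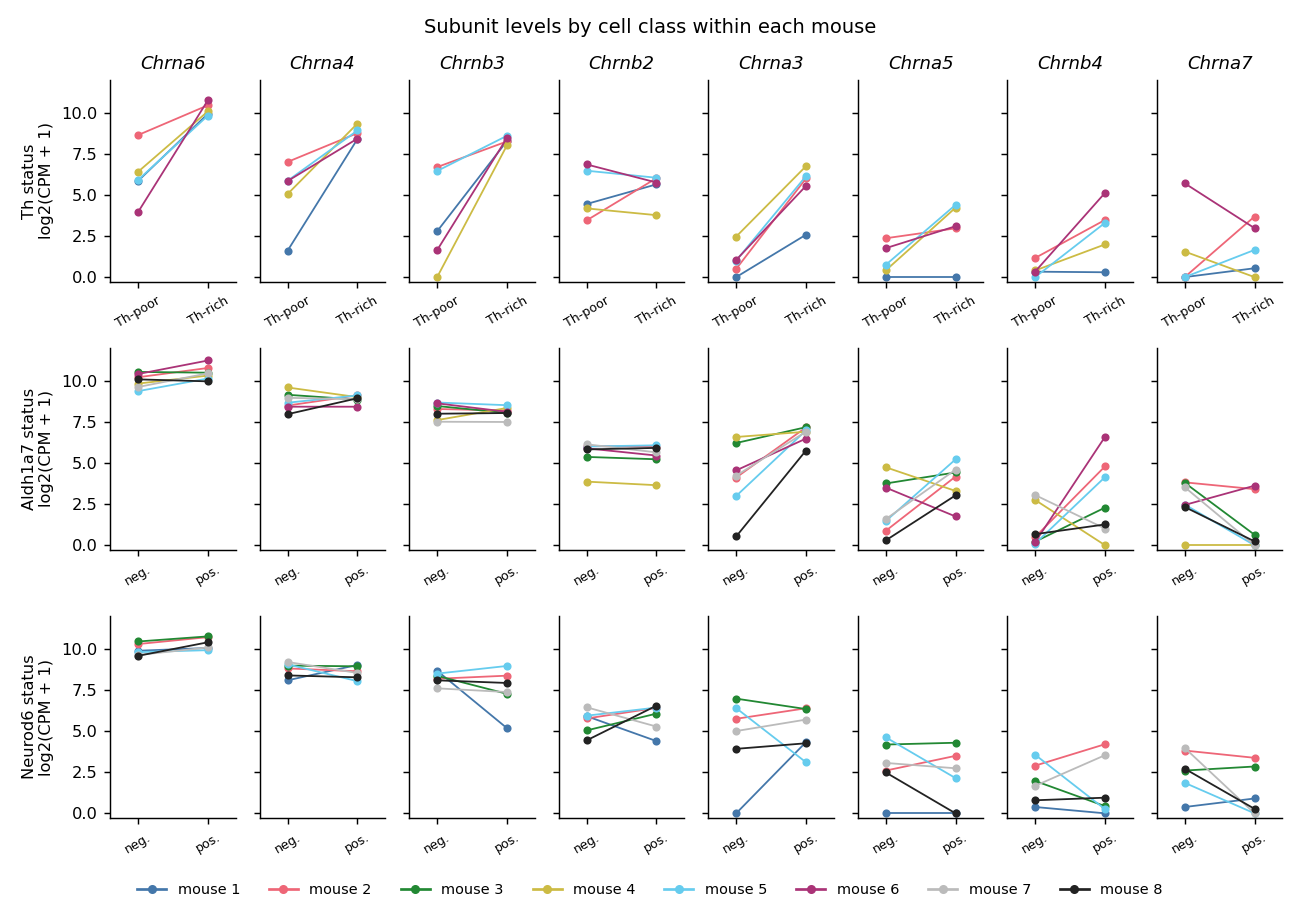
Level of each subunit as log2(CPM + 1) of the summed counts per mouse (points, lines join the 2 classes of a mouse), by *Th* status (top, 5 mice), *Aldh1a7* status (middle, 7 mice) and *Neurod6* status (bottom, 6 mice). *Chrna6*, *Chrna4*, *Chrnb3* and *Chrna3* are lower in *Th*-poor cells of every mouse drawn, and *Chrna3* is higher in *Aldh1a7*+ cells in 7 of 7 mice.

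The third comparison asked the same of *Neurod6*+ and *Neurod6*- cells in the 6 mice with both (mice 1, 2, 3, 5, 7 and 8). It draws on the same *Th*-rich cells as the *Aldh1a7* comparison, and *Aldh1a1* had a median of 4988 CPM in *Neurod6*+ and 219 CPM in *Neurod6*- cells, whose part in the values below was not tested. *Chrna6* was higher in *Neurod6*+ cells of all 6 mice, at 1062, 1678, 1731, 968, 1084 and 1350 CPM against 944, 1253, 1396, 891, 790 and 762 CPM. The 2 classes overlapped, with means of 1312 ± 330 and 1006 ± 259 CPM (log2 fold change 0.42 ± 0.22 SE, edgeR adjusted p = 0.935). By machine it was 0.39 and 0.45.

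*Chrnb2* was detected in 85.7% of *Neurod6*+ and 71.5% of *Neurod6*- cells, with the share higher in 3 mice and lower in 3, and its level was higher in 4 mice and lower in 2, with means of 64.2 ± 29.3 and 51.9 ± 23.1 CPM (0.36, edgeR adjusted p = 0.999). By machine it was -0.45 in mice 1, 2 and 7 and 1.18 in mice 3, 5 and 8. The 4 messages *Chrna4*, *Chrna6*, *Chrnb2* and *Chrnb3* were found together in 40 of 49 *Neurod6*+ cells (81.6%) and 88 of 137 *Neurod6*- cells (64.2%). *Chrna3* was detected in 44.9% and 49.6% of cells, and *Chrna5* in 18.4% and 25.5%. The log2 fold changes were -0.14 for *Chrna4*, -0.33 for *Chrnb3*, -0.20 for *Chrna3*, -0.52 for *Chrna5*, 0.41 for *Chrnb4* and -1.24 for *Chrna7*. On the C1 machine of mice 1, 2 and 7 alone, the sign for *Chrna3* and *Chrna5* turned, to 0.90 and 0.40. Among *Aldh1a7*- cells only, *Chrna3* was detected in 9 of 31 *Neurod6*+ cells (29.0%) and 17 of 81 *Neurod6*- cells (21.0%), and *Chrna5* in 12.9% and 6.17%. Among *Aldh1a7*+ cells the order was the other way, with *Chrna3* in 13 of 18 (72.2%) and 51 of 56 (91.1%), and *Chrna5* in 27.8% and 53.6%. Neither difference was tested. By edgeR, 0 of the 8 subunits were called, where 0.00804% of 12440 genes were, and 0 had an unadjusted p under 0.05, against 697 of all genes. DESeq2 called 0 of the 8, with 0.906% of 12364 genes called.

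Male and female mice, 5 against 3, had overlapping ranges for all 8 subunits. All 3 female mice were captured on the same C1 machine as 2 of the male mice, and 2 of the females, at 33 and 36 days, were older than any male (24 to 28 days), so that sex is partly confounded with machine and age. *Chrna6* had means of 1102 ± 260 CPM in male and 899 ± 333 CPM in female mice (log2 fold change 0.33, edgeR adjusted p = 0.827), and *Chrna4* 427 ± 68.0 and 308 ± 100 CPM (0.50, edgeR adjusted p = 0.664). In *Th*-rich cells alone these were -0.15 and -0.02. By edgeR, 0 of the 8 were called, where 0.0322% of 15528 genes were, and 0 had an unadjusted p under 0.05, against 1261 of all genes. DESeq2 called 0, with 1.27% of 14972 genes called. The 3 mice labelled female gave most of the *Th*-poor cells, 14 of 23.

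The genes around the receptor were read from fixed lists. Of the genes for receptor assembly and the Ly6 proteins that modulate it (*Ric3*, *Lynx1*, *Lypd1* and others), 9 to 12 entered each comparison and 0 were called by edgeR, with 2, 3, 2 and 1 at an unadjusted p under 0.05 in the *Th*, *Aldh1a7*, *Neurod6* and sex comparisons, where 1029 of 11132, 973 of 12525, 697 of 12440 and 1261 of 15528 genes were. DESeq2 called 1 in each of 2 comparisons, in which it called 1.25% and 0.906% of all genes. These were *Ubxn2a*, which aids the trafficking of α3 receptors, by *Aldh1a7* status (0.81 ± 0.20, edgeR adjusted p = 0.165 and DESeq2 adjusted p = 0.0112), and the calcium sensor gene *Vsnl1* by *Neurod6* status (-0.98, edgeR adjusted p = 0.271 and DESeq2 adjusted p = 0.0302).

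Of the genes for acetylcholine handling and the muscarinic receptors, 4 to 8 entered each comparison and 0 were called by edgeR or DESeq2. An unadjusted p under 0.05 was found for 2 of them by *Th* status and 1 in each other comparison, beside the same counts over all genes. The muscarinic receptor gene *Chrm5* had means of 69.2 ± 38.0 CPM in *Th*-rich and 5.39 ± 7.40 CPM in *Th*-poor cells (3.56, edgeR adjusted p = 0.422). *Chrm1*, another muscarinic receptor gene, had 1.98 ± 1.79 and 14.1 ± 15.6 CPM, lower in *Th*-rich cells of all 5 mice (-2.90, edgeR adjusted p = 0.427). Of the other nicotinic subunit genes, 5 were in the table and only *Chrna1* was high enough to test by *Th* status (9.27 ± 4.49 against 4.41 ± 3.10 CPM, 1.01, edgeR adjusted p = 0.785). Markers of cholinergic neurons had a summed median of 0 CPM in every class, as had those of the medial habenula, where *Chrna3* and *Chrnb4* are abundant. Of the 3 habenula markers, *Pou4f1* had 0 reads in all retained cells. The other habenula markers, *Gpr151* and *Tac2*, had reads in *Th*-rich cells, where the sum reached 61.5 CPM in a cell.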

How the data were processed

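Single cells were sorted from the midbrain and hypothalamus of 8 DAT-IRES-Cre;Ai9 mice and read as whole-transcript cDNA (SMARTer and Nextera XT, without strand). The authors deposited 1 table of raw counts per gene and cell. Per the labels and the study's methods, they used bcl2fastq 2.17, Trimmomatic 0.3.2, TopHat2 2.1.1 on GRCm38.3 (mm10) and featureCounts 1.5.0-p3 with RefSeq genes, and left out reads on more than 1 gene, chimeric fragments, doublet wells and cells of low cDNA yield. A short or shared exon therefore lowers the count of its gene. Of 47082 gene entries, 5721 had no value in any cell and 26749 had a read. The 95 rows of spike-ins and transgenes, at most 0.0188% of a cell's reads, were left out of totals and tests.

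Cells with at least 500000 reads were kept, 209 of 384, with 8499655 to 32834172 reads summed per mouse. No cells had identical counts. CPM is reads per 1000000 assigned to genes. *Th*-rich means at least 500 CPM of *Th*, and 10 reads of a gene made a cell positive for it. The subunits were named because they are the members. The other genes named were *Th*, *Aldh1a7*, *Neurod6*, *Slc6a3*, *Aldh1a1*, up to 4 called genes per list and the 3 genes most like each member by Pearson r of log2(CPM + 1), among 12105 genes with 10 reads or more in at least 10 cells. For *Chrna6*, 1 of these 3 is not reported here. *Ubxn2a*, *Vsnl1*, *Chrm1*, *Chrm5*, *Chrna1* and the marker genes were named after their values were seen. The members and lists were chosen with earlier results of these data known.

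Sums of counts per mouse and class, from mice with 3 or more cells in both, went into the quasi-likelihood test of edgeR 4.0.16 (R 4.3.3, TMM, filterByExpr, Benjamini-Hochberg adjustment over all genes tested, threshold 0.05). DESeq2 1.42.0 and a fit with mouse as a block were alternatives. Classes of the same animal are paired, and their deviations from the class means correlated at r = 0.03 to 0.17 by *Th*, 0.05 to 0.22 by *Aldh1a7* and 0.08 to 0.29 by *Neurod6* status. Intervals for shares are exact (Clopper-Pearson, 95%), and the limit that a count of 0 allows is 3 counts. Co-detection used an exact permutation test of signs over mice (scipy 1.17.1). Other alternatives changed the read minimum, the limits for *Th* and for a positive cell, the cells per class, the filter, the depth (thinning to 500000 reads), the C1 machine and the mice. The edgeR fit was tested on simulated data with known changes. The labels of each mouse differ from the series text in the number of each sex and in the range of ages, and the labels were used.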

Additional observations from a re-analysis of the deposited data

Results flagged for a closer look

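In 5 of 56 groups of 4 to 10 mice, 1 mouse stood apart from the others by Dixon's test at the 95% level, which chance alone gives in about 1 in 20 groups. Among *Th*-poor cells, mouse 2 had 397 CPM of *Chrna6* where the other 4 mice had 14.6 to 83.8 CPM, and 1.24 CPM of *Chrnb4* where the others had 0 to 0.322 CPM. Mouse 4 had 4.51 CPM of *Chrna3* in *Th*-poor cells, against 0 to 1.06 CPM. Mouse 6 had 51.1 CPM of *Chrna7* in *Th*-poor cells, against 0 to 1.93 CPM, and 95.2 CPM of *Chrnb4* in *Aldh1a7*+ cells, against 0 to 26.7 CPM in the other 6 mice. In *Th*-poor cells of all mice, 1 cell held 96.5% of the *Chrna7* reads and 1 cell held 53.4% of the *Chrna6* reads.

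*Chrna5* by *Aldh1a7* status went opposite ways in the sexes, the only 1 of 16 such contrasts that did. The difference in log2(CPM + 1) between *Aldh1a7*+ and *Aldh1a7*- cells averaged 2.69 in the 5 male mice, all positive, and -1.60 in the 2 female mice, both negative, so that the male value was higher by 4.29. This difference was not tested. In both of these female mice, 4 and 6, all 72 *Chrna5* reads of the *Aldh1a7*- class came from 1 cell, and the *Aldh1a7*+ class held 4 cells.

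The 175 cells below 500000 reads were left out of every comparison and still carried all 8 subunits. Their summed counts gave 592 CPM of *Chrna6*, 542 CPM of *Chrna4*, 219 CPM of *Chrnb3*, 25.0 CPM of *Chrnb2*, 40.8 CPM of *Chrna3*, 11.3 CPM of *Chrna5*, 2.91 CPM of *Chrnb4* and 7.93 CPM of *Chrna7*, where a count of 0 would allow 0.121 CPM. The retained cells, pooled, gave 1086, 403, 271, 53.9, 57.3, 10.0, 6.66 and 6.13 CPM in the same order.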

How the results depend on the processing

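The *Th* comparison rests on 23 *Th*-poor cells, and with 1 run per mouse, run and mouse cannot be told apart. The number of subunits called by *Th* status was 0, where 54 of all genes were called. It became 3 by DESeq2, where 376 of all genes were. With at least 1 cell per mouse and class it was 1 (*Chrna3*), with all genes called close to 54. When 1 mouse was left out it was 0 to 2, with 10 to 105 of all genes. *Chrna6*, *Chrna4*, *Chrnb3* and *Chrna3* kept their direction in all 14 alternatives of that comparison, with log2 fold changes of 2.24 to 4.44, 2.36 to 4.06, 1.76 (*Th*-rich from 1000 CPM) to 8.11 (from 100 CPM) and 4.87 to 6.08. Of the dopamine identity genes, 4 were called by *Th* status, 8 by DESeq2, 2 with mouse as a replicate block, 0 with *Th*-rich from 100 CPM and 2 to 5 without 1 mouse. By *Aldh1a7* status it was 3 by DESeq2, 1 with the block, with at least 5 cells, with positive from 1 or from 50 reads and with *Th*-poor cells included, and 0 to 1 without 1 mouse. DESeq2 called 1 by sex. Of the assembly and Ly6 list, 1 was called by DESeq2 by *Aldh1a7* and by *Neurod6* status, and 1 by *Aldh1a7* status with *Th*-poor cells included. The block changed no other call of a member or list.

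All genes called by *Th* status were 54, and 376 by DESeq2, 11 with the block, 30 without a filter, 33 after thinning, 13 on the C1 machine SMEAGOL, 0 with *Th*-rich from 100 CPM, and 105, 17, 15, 13 and 10 without mouse 1, 2, 4, 5 and 6. By *Aldh1a7* status they were 14, and 150 by DESeq2, 52 with *Th*-poor cells, 29 after thinning, 4 on SMEAGOL, 1 on FRODO, 1 from 750000 reads and 9, 8 and 8 without mouse 2, 5 and 6. The other settings by *Aldh1a7* status, the block among them, stayed close to 14. By *Neurod6* status they were 1, 112 by DESeq2 and 1 to 7 otherwise, and by sex 5, 190 by DESeq2, 3 from 750000 reads and 0 on SMEAGOL.

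The log2 fold changes below turned direction under the alternative named, and the cause was not tested. By *Th* status, *Chrnb2* was 0.014 without a filter, 0.057 on SMEAGOL, 0.25 with the block and -0.49 to 0.44 without 1 mouse. By *Aldh1a7* status, *Chrnb3* was -0.0083 without a filter, -0.11 from 750000 reads, -0.086 on FRODO, -0.038 with at least 5 cells, -0.087 after thinning, -0.18 and -0.19 with positive from 1 and 50 reads and -0.10 to 0.084 without 1 mouse, and *Chrnb2* was 0.14, 0.020 and 0.084 on FRODO, with 5 cells and from 1 read, and -0.091 to 0.057 without 1 mouse. By *Neurod6* status, from 750000 reads *Chrnb3* was 0.17 and *Chrnb4* -0.17. On SMEAGOL *Chrna4* was 0.0065, *Chrnb2* -0.45, *Chrna3* 0.90 and *Chrna5* 0.40. With the block *Chrna3* was 0.36 and *Chrnb4* -0.68. With at least 1 cell *Chrna5* was 0.29 and *Chrnb4* -1.12. From 1 read *Chrna5* was 0.12 and *Chrna7* 0.17, and from 50 reads *Chrna3* was 0.16 and *Chrnb4* -0.037. With *Aldh1a7*+ cells left out of the *Neurod6*- class only, while 18 stayed in the *Neurod6*+ class, *Chrna3* was 1.22 and *Chrna5* 1.54, and 2.77 and 1.42 with the block as well, a fit chosen after seeing the data. This removes cells rich in both genes from 1 side only, and its part in these turns was not tested. Without 1 mouse *Chrna3* was -0.49 to 0.17 and *Chrna5* -0.96 to 0.041. By sex, *Chrna6* was -0.052 from 750000 reads and *Chrna7* 0.54 on SMEAGOL. In *Th*-rich cells only, *Chrna6* was -0.15, *Chrna4* -0.022, *Chrnb3* -0.13 and *Chrna7* 1.28, and without 1 mouse *Chrnb4* was -1.36 to 2.24 and *Chrna7* -0.70 to 3.54.

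Co-detection differences in percentage points, with exact permutation p, crossed 0.05 in some settings. *Chrna6* with *Chrnb3* was 62.3 from 50 reads (exact permutation p = 0.015625) and 58.2 after thinning (exact permutation p = 0.03125). *Chrna4* with *Chrnb2* was 28.3 from 50 reads (exact permutation p = 0.03125) and 13.2 with the roles of the subunits exchanged (exact permutation p = 0.046875). *Chrna3* with *Chrnb4* missed the threshold at 8.80 from 1 read and 7.62 from 50 reads, and was 8.67 to 12.8 without 1 mouse. In *Th*-rich cells it was 10.3, where 5 of 6 mice differed, which cannot give less than 0.0625. *Chrna3* with *Chrna5* missed the threshold at 7.16 from 50 reads and 32.3 in *Th*-rich cells, and was 29.2 to 38.7 without 1 mouse. From 750000 reads these pairs gave 8.15 and 32.0 over 5 mice each. With roles exchanged they gave 26.0 over 2 mice and 49.0 over 4. So few mice cannot reach 0.05. The exchange was chosen after seeing the data.

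The share of cells with a subunit followed the read limit. From 1 read it was 95.7% for *Chrna6*, 96.7% for *Chrna4*, 88.0% for *Chrnb3*, 84.7% for *Chrnb2*, 56.5% for *Chrna3*, 40.2% for *Chrna5*, 23.0% for *Chrnb4* and 19.1% for *Chrna7*. From 50 reads it was 81.8% for *Chrna4*, 71.8% for *Chrnb3*, 29.2% for *Chrnb2*, 31.1% for *Chrna3*, 3.83% for *Chrna5* and 2.87% for *Chrnb4* and *Chrna7*. In cells of at least 750000 reads it was 92.2% for *Chrna6*, 93.0% for *Chrna4*, 88.7% for *Chrnb3* and 80.9% for *Chrnb2*, and after thinning 66.0% for *Chrnb2* and 15.3% for *Chrna5*.

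The *Th* comparison could not be fitted from 750000 reads, with at least 5 cells or on FRODO, nor sex on FRODO, and the *Chrna6* and *Chrna4* pairs had too few mice from 750000 reads, as had the *Chrna4* pairs from 1 read and in *Th*-rich cells.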
